A study of Mus musculus with 6 samples.

Results

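The 8 genes described here encode enzymes that break down GABA, cysteine and aldehydes: Abat, Aldh5a1, Cdo1, Csad, Aldh1b1, Aldh2, Aldh6a1 and Aldh4a1. They were taken by symbol from 13843 genes measured in the ventricles of single mouse embryos, and all 8 were in the table. The list joins catabolic enzymes that were lower in Vhl KO 1 and 2 with aldehyde dehydrogenase relatives kept for comparison. The members were selected on their levels in Vhl KO 1 and 2 against the controls, so those levels and fold changes are given below as a description, with no test, and support nothing.

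The RNA with poly(A) tails was sequenced from C57BL/6 embryos at E12.5, after the atria and the valve region had been cut away. The group labelled Vhl KO held 3 embryos of genotype Vhl(flox/flox) / Nkx2.5(Cre/+), and the control group held 3 embryos of genotype Vhl(flox/flox) / Nkx2.5(+/+). Floxed Vhl alleles are thus shared by both groups, and the Cre allele of Nkx2.5, which is active in heart progenitors, marks the first group only, so that loss of Vhl and the Cre allele cannot be told apart. Embryos with Cre and intact Vhl were not analysed here. Per the labels, Vhl KO 1 and control 1 came from litter 1, Vhl KO 2 and control 2 from litter 2, control 3 from litter 3 and Vhl KO 3 from litter 4, although the design text counts 3 litters.

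The libraries held 9067805 to 12592902 reads over the genes of the table, and each library is 1 embryo. Values are read counts divided by a factor per library that lies close to its total, so they are near to CPM and are called scaled CPM here. Vhl stood at 11.1 and 10.3 scaled CPM in Vhl KO 1 and 2, against 33.7, 36.3 and 38.6 in controls 1 to 3. The library labelled Vhl KO 3 had 34.5, inside the control range, so that library goes against its label. Its values are therefore shown apart, and group values are those of Vhl KO 1 and 2 against the 3 controls. Ventricular muscle markers were abundant in every library, with 2661 to 3186 scaled CPM of the troponin gene Tnnt2 and 4271 to 5611 of the ventricular light chain gene Myl2.

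GABA, known best as a transmitter of the brain, is also made and broken down in other tissues. GABA transaminase, encoded by Abat, turns it into succinic semialdehyde in mitochondria, and succinic semialdehyde dehydrogenase, encoded by Aldh5a1, oxidises that product to succinate, which enters the TCA cycle. Cysteine dioxygenase, encoded by Cdo1, is an iron enzyme that uses molecular oxygen to make cysteine sulfinate, and the decarboxylase encoded by Csad turns cysteine sulfinate into hypotaurine, the precursor of taurine, an abundant small molecule of heart muscle. Aldehyde dehydrogenases oxidise reactive aldehydes to acids with NAD or NADP, and several of them work in mitochondria. The von Hippel-Lindau protein encoded by Vhl marks hypoxia-inducible factors for degradation when oxygen is present.

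Both enzymes of GABA breakdown were lower in Vhl KO 1 and 2. Abat (ENSMUSG00000057880, chromosome 16, 8513429 to 8621568 on GRCm38, plus strand) had 64.3 scaled CPM in Vhl KO 1 and 59.3 in Vhl KO 2, against 117.9, 108.7 and 113.4 in controls 1 to 3. Aldh5a1 (ENSMUSG00000035936, chromosome 13, 24907579 to 24937661, minus strand) had 51.2 and 44.9 scaled CPM in Vhl KO 1 and 2, against 86.4, 78.8 and 86.95 in the controls. For both genes the 2 knockout values lay below every control, with a wide gap between the groups. The library labelled Vhl KO 3 had 123.8 of Abat, above all controls, and 84.9 of Aldh5a1, inside their range. The log2 fold change, on log2(value + 1), was -0.87 ± 0.08 for Abat and -0.80 ± 0.09 for Aldh5a1 (SE, 2 against 3 libraries).

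The size of the difference was much the same in both litters. Abat in Vhl KO 1 stood at 0.545 times the level of its littermate control, and in Vhl KO 2 at 0.546 times. For Aldh5a1 the littermate ratios were 0.593 and 0.569. Scaled CPM of Abat over those of Aldh5a1 came to 1.25 and 1.32 in Vhl KO 1 and 2 and to 1.46 in the library labelled Vhl KO 3, against 1.35 ± 0.04 in controls (SD, n = 3), so Vhl KO 1 stood below the lowest control and Vhl KO 2 among them. Among 9916 other named genes with a mean of at least 10 scaled CPM, the gene whose pattern over the 6 libraries lay closest to that of Abat was Aldh5a1, and the gene closest to Aldh5a1 was Abat. The likeness was measured as the root mean square difference of log2(value + 1) centred on the control mean, which was 0.069 for this pair. It includes the values of Vhl KO 1 and 2 that chose the members, so nothing is read from it here or below. Almost level with it, Tcea3, a transcription elongation factor gene, came next to Abat at 0.070, and then Coq8a, which takes part in coenzyme Q synthesis, at 0.10. Next to Aldh5a1 came Hsd17b7, a sterol synthesis gene, nearly as close at 0.071, and the chromatin factor gene Dpf3 at 0.08.

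**Figure D1:**
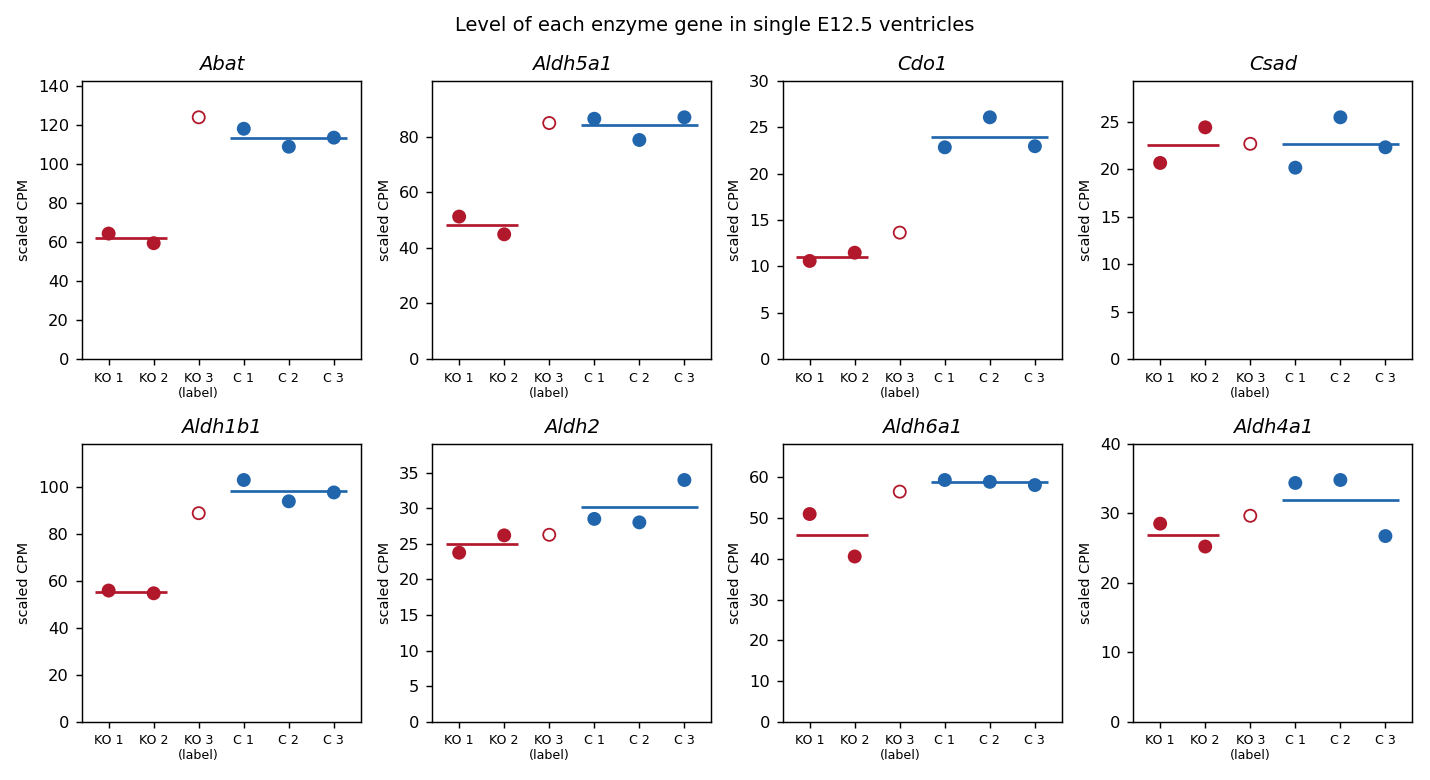
Level of each of the 8 genes, in scaled CPM on linear axes from 0, in single ventricles. Red filled points are Vhl KO 1 and 2, the open point is the library labelled Vhl KO 3, blue points are controls 1 to 3 and bars are means of the filled groups. Abat, Aldh5a1, Cdo1 and Aldh1b1 are lower in Vhl KO 1 and 2, Csad overlaps its controls, and Cdo1 alone of the 4 is also well below the controls in the open point, at 13.6 against 22.9 to 26.1.

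The pair of enzymes that leads from cysteine to taurine differed from each other. Cdo1 (ENSMUSG00000033022, chromosome 18, 46713193 to 46728395, minus strand) had 10.6 and 11.5 scaled CPM in Vhl KO 1 and 2, against 22.9, 26.1 and 22.97 in the controls. Csad (ENSMUSG00000023044, chromosome 15, 102176999 to 102204724, minus strand) had 20.7 and 24.4 in Vhl KO 1 and 2, against 20.2, 25.5 and 22.3 in the controls. The knockout values of Cdo1 lay below every control, whereas those of Csad lay among them. The log2 fold change was -1.05 ± 0.12 for Cdo1, the lowest of the 8, and -0.01 ± 0.13 for Csad (SE). Cdo1 in Vhl KO 1 and 2 stood at 0.463 and 0.44 times the level of its littermate control, and Csad at 1.02 and 0.958 times. Cdo1 was thus at 0.512 and 0.47 times the scaled CPM of Csad in Vhl KO 1 and 2 and at 0.601 times in the library labelled Vhl KO 3, against 1.06 ± 0.06 times in controls (SD, n = 3).

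Cdo1 was also low in the library whose Vhl level goes against its label. That library had 13.6 scaled CPM of Cdo1 (149 reads, exact Poisson 95% interval 11.5 to 16.0, counting error only), 56.9% of the control mean and below the lowest control at 22.9. This value took no part in the choice of the members, but the controls it is set against did. As a single embryo of a litter of its own, that library has no replicate. In the same library Csad stood at 100.1%, Aldh5a1 at 101%, Abat at 109% and Aldh1b1 at 90.5% of the control mean. The genes whose pattern lay closest to Cdo1 were farther off than for the other members, at 0.23 for the exchange factor gene Mcf2l, 0.23 for the small heat shock protein gene Hspb6 and 0.25 for the Nogo receptor relative Rtn4rl1. Csad lay closest to the protein kinase gene Prkd2, the receptor gene Kit and the histone chaperone gene Supt16, each at 0.04.

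The remaining members and Aldh5a1 are 5 mitochondrial aldehyde dehydrogenases. Besides Aldh5a1 they are Aldh1b1, which oxidises acetaldehyde and retinaldehyde, Aldh2, which clears acetaldehyde and the lipid peroxidation product 4-hydroxynonenal, Aldh6a1, which acts on methylmalonate semialdehyde at the end of valine breakdown, and Aldh4a1, which makes glutamate from the semialdehyde formed in proline breakdown. They share a catalytic cysteine, and the coding bases around it are shown to let the relatives be compared, with the cysteine codon in capitals and 8 codons on either side. They were read 5′ to 3′ on the coding strand from GENCODE M21 transcripts on GRCm38, at chr13:24915891-24918521 for Aldh5a1, where the stretch spans the junction of exons 6 and 7, chr4:45803400-45803450 for Aldh1b1 (exon 2), chr5:121572778-121572828 for Aldh2 (exon 9), chr12:84436796-84436846 for Aldh6a1 (exon 8) and chr4:139642154-139642204 for Aldh4a1 (exon 10).
Aldh5a1: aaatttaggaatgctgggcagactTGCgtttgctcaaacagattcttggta
Aldh1b1: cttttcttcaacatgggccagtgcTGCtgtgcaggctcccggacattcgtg
Aldh2: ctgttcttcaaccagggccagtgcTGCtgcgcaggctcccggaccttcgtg
Aldh6a1: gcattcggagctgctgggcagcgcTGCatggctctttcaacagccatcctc
Aldh4a1: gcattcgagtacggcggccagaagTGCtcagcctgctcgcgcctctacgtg
Aldh1b1 and Aldh2 are the closest pair, with 70.1% identical bases over 1550 aligned coding positions, and the other 9 pairs share 53.2% to 59.1%. No stretch of 75 bases, the read length, was the same in the coding transcript of Aldh1b1 and in any other gene's transcript, so full-length exact reads of Aldh1b1 and Aldh2 can be told apart.

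Aldh1b1 was lower in Vhl KO 1 and 2, and its near relative Aldh2 was lower by less. Aldh1b1 (ENSMUSG00000035561, chromosome 4, 45799022 to 45804604, plus strand, 2 exons) had 55.9 and 54.8 scaled CPM in Vhl KO 1 and 2, against 103.1, 93.98 and 97.8 in the controls. Aldh2 (ENSMUSG00000029455, chromosome 5, 121566027 to 121593824, minus strand) had 23.8 and 26.2 in Vhl KO 1 and 2, against 28.5, 28.03 and 33.98 in the controls. The groups stood far apart for Aldh1b1 and close to each other for Aldh2. The library labelled Vhl KO 3 had 88.9 of Aldh1b1 (exact Poisson 95% interval 83.4 to 94.7) and 26.3 of Aldh2, both below the lowest control by a small step. The log2 fold change was -0.82 ± 0.07 for Aldh1b1 and -0.26 ± 0.12 for Aldh2 (SE). Scaled CPM of Aldh1b1 were 2.35 and 2.09 times those of Aldh2 in Vhl KO 1 and 2 and 3.38 times in the library labelled Vhl KO 3, against 3.28 ± 0.37 times in controls (SD, n = 3). The pattern of Aldh1b1 lay closest to Dpf3 and to Pde3a, a phosphodiesterase gene of heart muscle, both at 0.07, and then to Aldh5a1 at 0.08.

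Aldh6a1 and Aldh4a1 differed by smaller steps. Aldh6a1 (ENSMUSG00000021238, chromosome 12, 84430717 to 84451004, minus strand) had 51.0 and 40.6 scaled CPM in Vhl KO 1 and 2, against 59.4, 58.9 and 58.1 in the controls. Both knockout values lay below the narrow control range, and they were farther from each other than the controls were among themselves. The library labelled Vhl KO 3 had 56.5, and the log2 fold change was -0.36 ± 0.10 (SE). Without Vhl KO 2 that fold change was -0.20. Aldh4a1 (ENSMUSG00000028737, chromosome 4, 139622866 to 139649690, plus strand) had 28.5 and 25.2 in Vhl KO 1 and 2, against 34.4, 34.8 and 26.7 in the controls, with 29.7 in the library labelled Vhl KO 3 and a log2 fold change of -0.24 ± 0.14 (SE). That fold change was -0.15 without Vhl KO 2 and -0.36 without control 3. Control 3 lay between the 2 knockouts, so the groups overlapped. In the annotation the gene Gm21969 runs through Aldh4a1 on the same strand and shares 43.8% of the 75-base stretches of its coding transcript, so values of Aldh4a1 depend on how reads were shared out. The 3 closest patterns were those of Epha7, Radil and Mrps7 for Aldh2, all at 0.05, of Arhgef6, Apool and Vwa8 for Aldh6a1, at 0.04 to 0.05, and of Spsb4, Blvra and Serac1 for Aldh4a1, at 0.04 to 0.06.

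**Figure D2:**
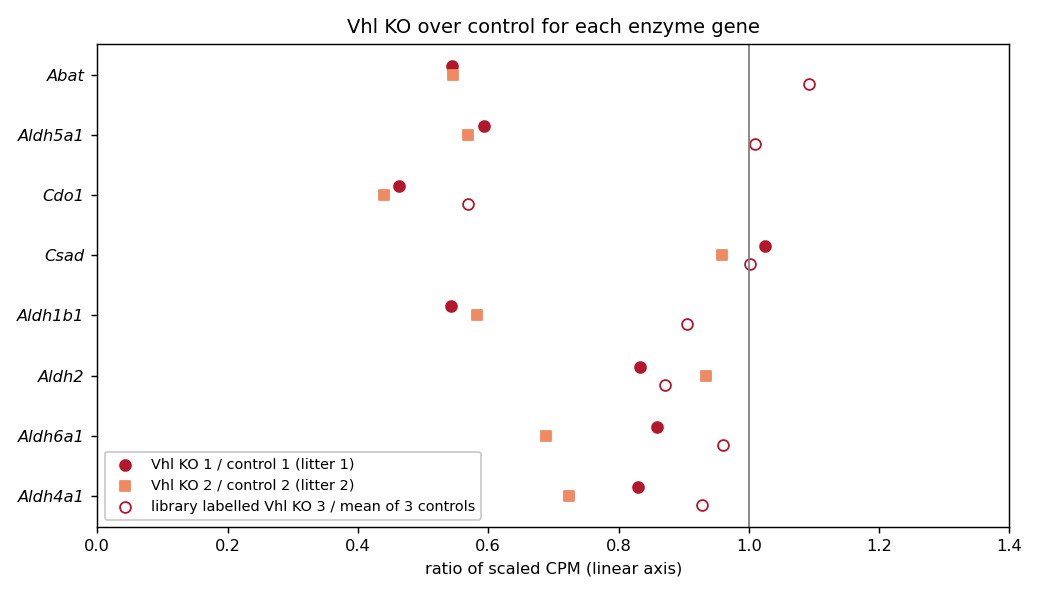
Ratio of scaled CPM for each of the 8 genes on a linear axis. Filled circles are Vhl KO 1 over control 1, squares Vhl KO 2 over control 2 and open circles the library labelled Vhl KO 3 over the mean of 3 controls. Filled symbols of Abat, Aldh5a1, Cdo1 and Aldh1b1 lie between 0.44 and 0.593 in both litters, while those of Csad lie at 1.02 and 0.958.

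The members thus differed among themselves in log2 fold change, from -0.01 for Csad to -1.05 for Cdo1. With the test fitted on all genes (limma, Benjamini-Hochberg adjusted p under 0.05), 4 of 8 members were lower and 0 higher in Vhl KO 1 and 2, where 1.24% of all genes were lower and 3.01% higher. The 4 were Abat, Aldh5a1, Cdo1 and Aldh1b1. Since this contrast chose the members, nothing is read from that count or from the other counts below that rest on Vhl KO 1 and 2. The median log2 fold change was -0.58 over the 8 genes and -0.01 over all genes. Knockout values lay below every control for 6 of 8 members, as they did for 17% of all genes, and above every control for 0 of 8, where 18.1% of all genes did so. Between littermates, with litter as a block and 1 residual degree of freedom, 5 of 8 were lower, Aldh6a1 being added, and 0 were higher, where 3.24% of all genes were lower and 4.86% higher. With all 6 libraries as labelled 0 members were lower, as were 0% of all genes. The library labelled Vhl KO 3 took no part in the choice, but the controls that set the range did, so nothing is read from its place. It lay inside the control range for 3 of 8 members, against 56.1% of all genes. It lay above that range for Abat and below it for Cdo1, Aldh1b1, Aldh2 and Aldh6a1. For those last 4 genes every library labelled Vhl KO lay below every control, as for 4.65% of all genes. The choice used the controls and 2 of those 3 libraries. By counting error alone, the exact Poisson 95% interval of Vhl KO 3 reached past the lowest control for Aldh1b1, Aldh2 and Aldh6a1. Its upper ends were 94.7, 29.5 and 61.1 scaled CPM, against lowest controls of 93.98, 28.03 and 58.1. For Cdo1 it did not. Bulk RNA cannot tell fewer cells of a type from less RNA per cell, and this holds for each value given here.

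**Figure D3:**
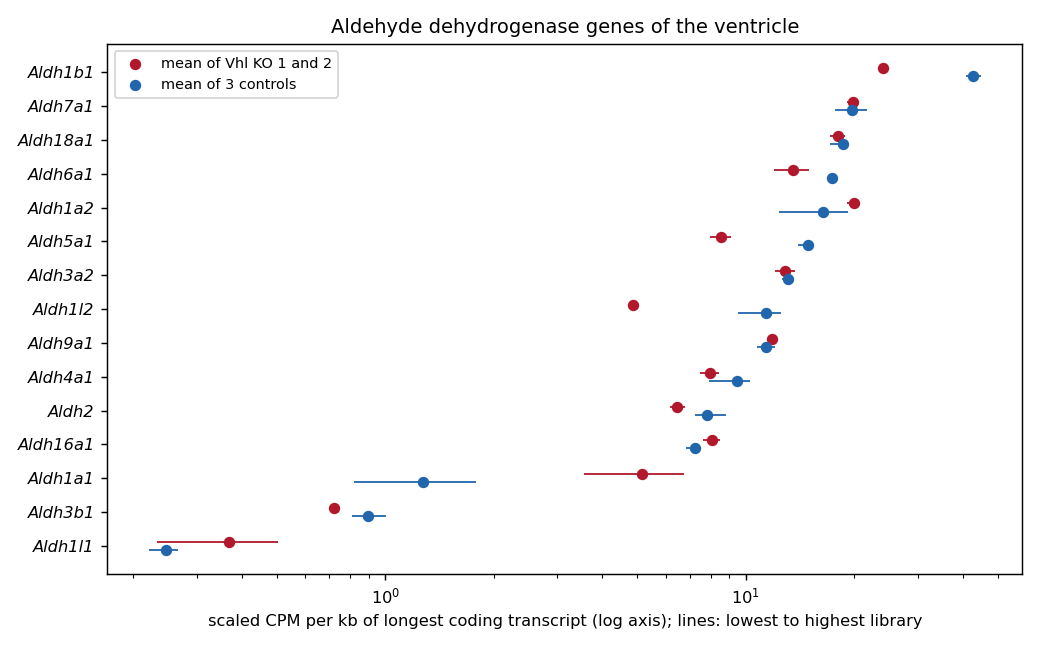
Levels of the 15 measured aldehyde dehydrogenase genes in scaled CPM per kb of longest coding transcript, on a log axis, ordered by the control mean. Red points are the mean of Vhl KO 1 and 2, blue points the mean of 3 controls, and lines run from the lowest to the highest library. Aldh1b1 heads the family in both groups, at 24.1 against 42.8, and Aldh5a1, Aldh1l2 and Aldh1a1 also show wide gaps.

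Aldh1b1 was the most abundant aldehyde dehydrogenase transcript of these ventricles. Per kb of longest coding transcript it stood at 24.1 scaled CPM as the mean of Vhl KO 1 and 2, against 42.8 ± 1.99 in controls (SD, n = 3), the highest level of the 15 family members measured in either group. Next in the controls came Aldh7a1 (19.7 ± 1.99), which acts in lysine breakdown, Aldh18a1 (18.6 ± 1.27), which makes the precursor of proline, Aldh6a1 (17.3 ± 0.19) and Aldh1a2 (16.3 ± 3.55), which makes retinoic acid. The ranges of these 4 overlapped from each neighbour to the next, and all lay below Aldh1b1. Aldh5a1, at 8.51 per kb in Vhl KO 1 and 2 and 14.9 ± 0.81 in controls, ranked 8 in Vhl KO 1 and 2 and 6 in controls. Aldh4a1 and Aldh2 stood at 7.95 and 6.46 per kb in Vhl KO 1 and 2, against 9.46 ± 1.34 and 7.80 ± 0.86 in controls. Outside the family, Abat stood at 13.3 per kb in Vhl KO 1 and 2 against 24.5 in controls, Cdo1 at 6.92 against 15.03 and Csad at 9.90 against 9.95.

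Of 15 other aldehyde dehydrogenase genes on a list drawn up for this comparison, 10 were in the table, and 1 rose and 1 fell. Aldh1a1, a retinaldehyde dehydrogenase, had 15.8 and 8.41 scaled CPM in Vhl KO 1 and 2, against 4.22, 1.93 and 2.83 in the controls (log2 fold change 1.70 ± 0.32, SE; limma adjusted p = 0.027). Both knockouts lay above every control and differed widely from each other. Aldh1l2, the mitochondrial folate enzyme, had 29.7 and 29.0 in Vhl KO 1 and 2, against 73.2, 57.4 and 75.6 in the controls and 64.6 in the library labelled Vhl KO 3 (log2 fold change -1.19 ± 0.12; limma adjusted p = 0.0021). It was called with each of the 5 libraries left out in turn, with adjusted p up to 0.028. Aldh1a1 lost its call without Vhl KO 1, control 2 or control 3, with adjusted p up to 0.18. The remaining 8 did not pass, among them the abundant Aldh7a1 (0.02 ± 0.10) and Aldh18a1 (-0.04 ± 0.09).

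Other genes around GABA were mostly not called. Of 18 listed genes of GABA synthesis, transport and succinic semialdehyde, 11 were in the table, 2 rose and 0 fell. Those 2 were Gls2, a glutaminase gene, with 3.80 and 3.42 scaled CPM in Vhl KO 1 and 2 against 0.777, 0.923 and 1.47 in controls (log2 fold change 1.18 ± 0.23; limma adjusted p = 0.035), and Odc1, the ornithine decarboxylase of polyamine synthesis, with 252.8 and 264.5 against 180.5, 202.9 and 202.96 (0.40 ± 0.08; limma adjusted p = 0.032). Every gene of the table had at least 1 scaled CPM in at least 3 libraries. Apart from Vhl KO 1 and 2, Gls2 reached 1 only in control 3 and in the library labelled Vhl KO 3 (1.01). Gls2 is thus in the table through the libraries where it was high, so nothing is read from its rise. The glutamate decarboxylase genes Gad1 and Gad2, whose enzymes make GABA, were not analysed here. The abundant glutamate dehydrogenase gene Glud1 did not pass (-0.16 ± 0.07). Adhfe1, which makes succinic semialdehyde from gamma-hydroxybutyrate, had 1.45 and 0.613 in Vhl KO 1 and 2 against 4.22, 2.60 and 3.46 in controls, and passed between littermates alone (limma adjusted p = 0.014, against 0.064 in the 5 libraries).

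Of 18 listed cysteine and taurine genes, 13 were in the table and 0 passed, where 4.25% of all genes passed in either direction. Slc6a6, the taurine transporter, had 200.8 and 189.8 scaled CPM in Vhl KO 1 and 2, against 209.0, 173.9 and 136.4 in controls. Got1, which also acts on cysteine sulfinate, had 150.9 and 130.8 against 182.9, 153.97 and 156.5. The knockouts overlapped the controls for Slc6a6 and lay below them for Got1 (log2 fold change -0.22 ± 0.10, limma adjusted p = 0.31). The other thiol dioxygenase gene, Ado, whose product is likewise an oxygen-using iron enzyme, had 45.7 and 44.7 in Vhl KO 1 and 2, against 50.1, 47.8 and 42.5 in controls. Fmo1, whose product oxidises hypotaurine to taurine, had 14.3 and 15.8 against 6.32, 12.2 and 8.71, and passed between littermates alone (limma adjusted p = 0.038, against 0.16 in the 5 libraries). Adhfe1, Ado and Fmo1 were named after their values were seen.

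Around Aldh6a1, the genes of branched-chain amino acid and propionate breakdown leaned downward by small steps. All 24 listed genes were in the table, 22 had a log2 fold change below 0, and the median was -0.23, beside 7173 of 13843 below 0 and a median of -0.01 over all genes. The fall passed for 1 of them, Hibch, the enzyme that acts in the valine pathway before Aldh6a1, with 25.8 and 23.2 scaled CPM in Vhl KO 1 and 2 against 35.2, 32.3 and 36.2 in controls (log2 fold change -0.48 ± 0.10; limma adjusted p = 0.041). Hibadh, which makes the substrate of Aldh6a1, had 79.5 and 65.5 against 89.1, 85.5 and 87.6 and did not pass (-0.27 ± 0.09; limma adjusted p = 0.18). Between littermates 4 of the 24 were lower, namely Hibch, Dld, a subunit gene shared by the mitochondrial dehydrogenase complexes, Acat1, which cleaves acetoacetyl-CoA, and Mccc1, a carboxylase subunit of leucine breakdown. In the 5 libraries Dld (-0.33 ± 0.10) and Acat1 (-0.31 ± 0.11) did not pass. Hibadh and Mccc1 were named after their values were seen.

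Around Aldh4a1, 7 of 9 listed proline and ornithine genes were measured, and 1 fell, the aspartate aminotransferase Got2 (294.2 and 291.1 scaled CPM in Vhl KO 1 and 2, against 400.2, 368.7 and 369.8 in controls; log2 fold change -0.37 ± 0.07; limma adjusted p = 0.029). Prodh, the proline dehydrogenase that feeds Aldh4a1, had 9.21 and 9.46 against 8.99, 7.80 and 8.18 and did not pass, and it was named after its values were seen. The abundant Oat, which turns ornithine into the semialdehyde on which Aldh4a1 acts, did not pass either (0.04 ± 0.11). Of 12 other aldehyde-clearing enzymes 9 were measured, and 1 rose, the glyoxalase Glo1, which disposes of methylglyoxal, a by-product of glycolysis (158.2 and 143.7 against 111.2, 119.7 and 119.5; log2 fold change 0.37 ± 0.08; limma adjusted p = 0.04). Formaldehyde-clearing Adh5 (0.10 ± 0.07) and the aldehyde reductase Akr1a1 (0.20 ± 0.07) did not pass. Abat and Csad need pyridoxal phosphate, and 0 of the 3 measured genes of its supply passed, Plpbp among them (-0.15 ± 0.09). In all, 4 of 77 measured pathway genes rose and 3 fell, 9.09% together, where 416 of all 13843 genes rose and 172 fell, 4.25% together. The 4 include Gls2, which is in the table through Vhl KO 1 and 2. Leaving out 1 library in turn left 0 or 1 higher and 1 lower, and Odc1, Hibch, Got2 and Glo1 were called in none of those 5 fits, with adjusted p of 0.063 to 0.19, and Gls2 in 1 of them, without control 3. With a pseudocount of 0.1 Gls2 was not called (limma adjusted p = 0.051), at a log2 fold change of 1.72, which was 0.51 with a pseudocount of 5 and 1.77 in edgeR on recovered reads. That of Aldh1a1 was 1.07 with a pseudocount of 5. In the library labelled Vhl KO 3 all 7 called genes lay inside the control range, and with that library kept none of the 7 passed (limma adjusted p = 0.77).

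**Figure D4:**
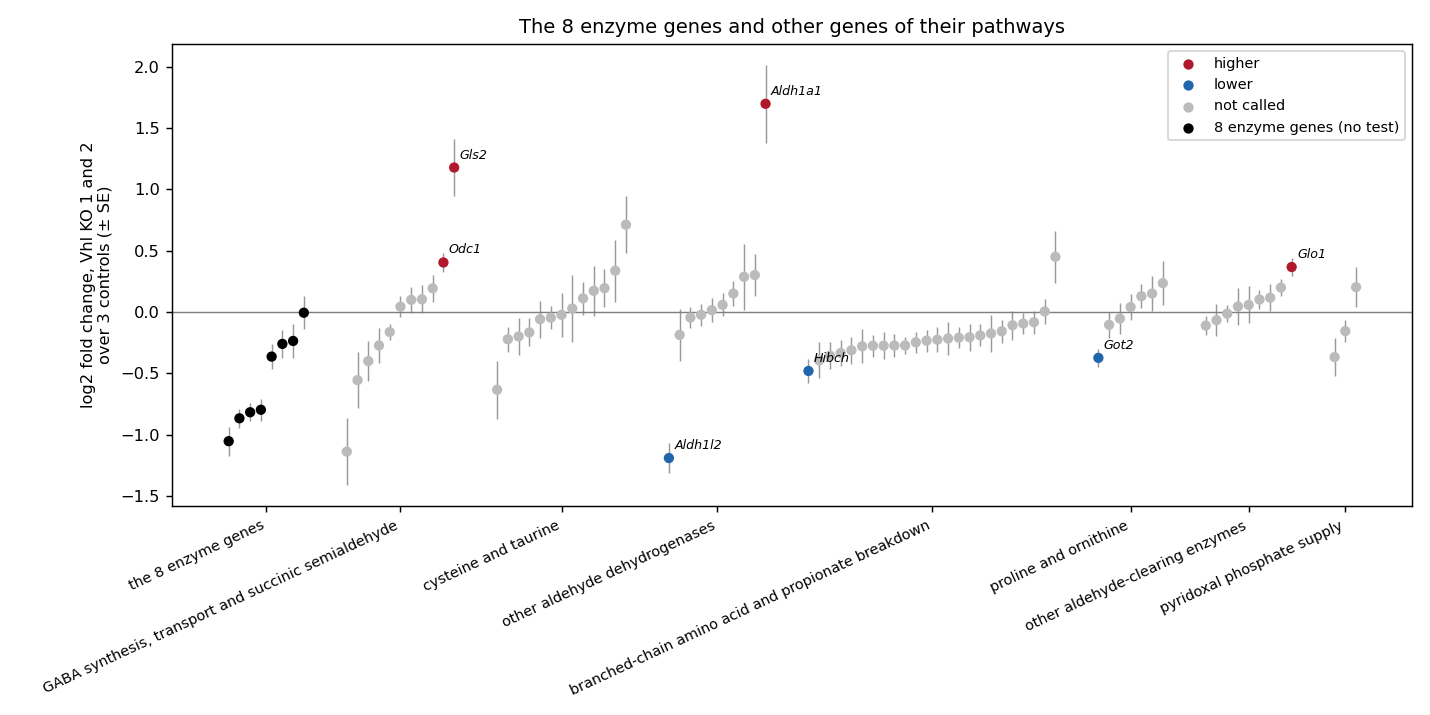
Log2 fold change with SE, Vhl KO 1 and 2 over 3 controls on log2(value + 1), of the 8 enzyme genes (black, no test) and of 77 genes of related pathways, sorted within each list. Red and blue genes passed the limma threshold and are named, grey genes did not. Aldh1l2 at -1.19 is the called gene with the lowest value, and the branched-chain list sits mostly below 0.

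Promoter windows were searched for 5 of the 8 genes, and those of Abat, Cdo1 and Aldh2 were not analysed here. The windows came from RefSeq on GRCm38.p6, each running from 250 bases before to 50 bases after a start site. Those of Aldh5a1 and Aldh1b1 are shown because the transcripts of both were lower in Vhl KO 1 and 2 by like amounts. The letters ACGTG and GCGTG, the core that hypoxia-inducible factors bind, were searched on both strands and are in capitals where present. ACGTG also lies within the E-box CACGTG. Both sequences are written 5′ to 3′ in the direction of the gene, chr13:24937612-24937911 on the minus strand and chr4:45798772-45799071 on the plus strand.
Aldh5a1: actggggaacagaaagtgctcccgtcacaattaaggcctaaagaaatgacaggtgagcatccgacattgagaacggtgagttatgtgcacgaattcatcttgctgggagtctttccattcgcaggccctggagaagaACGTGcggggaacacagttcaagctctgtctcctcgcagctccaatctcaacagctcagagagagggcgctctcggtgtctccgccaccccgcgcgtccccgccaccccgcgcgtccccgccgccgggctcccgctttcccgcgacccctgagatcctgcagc
Aldh1b1: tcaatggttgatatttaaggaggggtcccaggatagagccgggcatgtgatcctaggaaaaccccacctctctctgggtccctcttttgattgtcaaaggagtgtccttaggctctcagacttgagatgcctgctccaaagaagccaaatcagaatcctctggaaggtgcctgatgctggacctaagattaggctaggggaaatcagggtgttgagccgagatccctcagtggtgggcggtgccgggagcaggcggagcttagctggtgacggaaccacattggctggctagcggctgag
The Aldh5a1 window held 1 copy of ACGTG and the Aldh1b1 window held 0 copies of either. Of 32851 mouse promoter windows of the same length, 19.6% held ACGTG, 32.4% held GCGTG and 43.8% held at least 1 of them. Csad, whose groups overlapped, held 2 copies of ACGTG in 1 of its 2 windows, Aldh6a1 held 1 copy of GCGTG in 1 of its 2 windows, and Aldh4a1 held 2 copies of GCGTG.

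Sums of some marker lists of other cells were higher in Vhl KO 1 and 2, and other lists overlapped the controls. The epicardial list summed to 876.9 and 692.5 scaled CPM in Vhl KO 1 and 2, against 338.6 to 416.3 in controls. Of its 10 genes 5 rose, namely Wt1, Upk1b and the keratin genes Krt19, Krt8 and Krt18. In the same fit 3.01% of all genes rose and 1.24% fell, the shares to set beside this count and those below. Much of the epicardial sum came from Krt19, with 267.7 and 210.1 against 35.2 to 49.2 in controls. Upk3b, Msln, Aldh1a2, Tbx18 and Tcf21 were not called. The list of mesenchyme and smooth muscle summed to 4433 and 3530 against 2171 to 3094 with 2 of 10 higher, and the endothelial and endocardial list to 1912 and 1942 against 1662 to 1732 with 2 of 10 higher. The 2 of mesenchyme and smooth muscle were Acta2 (1569 and 1515 against 801.7 to 1023 in controls) and Tagln (522.8 and 600.8 against 157.0 to 323.5). The rest of that list was not called, with log2 fold changes from -0.09 for Pdgfra to 0.54 for Dcn. Col1a1 lay above every control in Vhl KO 1 (731.5) and below every control in Vhl KO 2 (262.9, against 292.8 to 379.2). The cardiomyocyte list summed to 40373 and 35791, against 33882 to 41322 in controls, so its groups overlapped, and 1 of its 10 genes fell. Of 8 macrophage markers 7 were measured, at 75.8 to 87.0 against 72.3 to 102.7, and the 8 erythroid markers summed to 6571 to 14806 against 6021 to 13554. In the atrial list 1 of 5 measured genes rose, with sums of 4156 and 3572 against 2918 to 3185. The library labelled Vhl KO 3 lay inside the control range for the epicardial, cardiomyocyte, macrophage and erythroid lists, with 387.6 for the first of these. It lay below every control for mesenchyme and smooth muscle (2074), for endothelium and endocardium (1594) and for the atrial list (2709). The part of these cell types in the values of the 8 enzyme genes was not tested.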

How the data were processed

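The table deposited by the authors held a normalized signal for 13843 genes in 6 libraries. Per the submitters' processing notes, CASAVA 1.8.2, cutadapt 1.3 and RSEM 1.2.3 were used with GRCm38; neither the scaling nor the annotation release is given in the sources used here. In each deposited column 100% of signal values were whole multiples of 1 step (tolerance 0.01 reads), so whole reads were recovered. Symbols came from GENCODE M21 for 13675 genes. The main test was limma 3.58.1 with trend on log2(value + 1) in R 4.3.3, over all genes, at an adjusted p under 0.05. The fit was tested on simulated data. edgeR 4.0.16 and DESeq2 1.42.0 were run on recovered reads as alternatives; edgeR called 407 genes higher and 163 lower in Vhl KO 1 and 2, against 416 and 172 with limma. The 8 genes and all lists were chosen with earlier results of these data known. Named from each pathway list were up to 6 called genes and up to 2 abundant others, of which some are not reported here. Nothing says more of the replicates than that each is 1 embryo, so p-values measure the spread between embryos. Litters pair the samples per the labels: deviations from group means correlated over genes at 0.20 in litter 1 and 0.28 in litter 2. RSEM shares out reads of similar loci and the counting is not stated to use strand, so values of overlapping genes are uncertain (Aldh5a1 shares 11.8% of 75-base stretches with antisense transcripts, Aldh6a1 3.58% with Bbof1). The members held 131 to 1352 reads per library, which limits precision most for Cdo1.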

Additional observations from a re-analysis of the deposited data

How the results depend on the processing

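Under 13 alternatives each, log2 fold changes ran from -0.92 to -0.53 for Abat, -0.89 to -0.53 for Aldh5a1, -1.12 to -0.85 for Cdo1 and -0.85 to -0.59 for Aldh1b1. For Abat, Aldh5a1 and Aldh1b1 the value nearest 0 came with the library labelled Vhl KO 3 kept. Csad ran from -0.12 to 0.11, and Aldh2, Aldh6a1 and Aldh4a1 were below 0 throughout. Over all genes the counts were 416 higher and 172 lower. They became 0 and 0 with the library labelled Vhl KO 3 kept, and 673 and 449 with litter as a replicate block. DESeq2 on recovered reads called 276 lower, and leaving out each library gave 146 to 297 higher and 44 to 90 lower. The 4 higher and 3 lower pathway genes became 0 and 0 with that library kept, 7 lower with the block, and 0 to 1 higher and 1 lower with each library left out. With all 6 libraries as labelled, limma and edgeR called 0 genes (859 and 907 at an unadjusted p under 0.05) and DESeq2 7 higher and 4 lower, the block gave 669 and 459, and leave-one-out counts were 0 to 416 higher and 0 to 172 lower, the upper ends without Vhl KO 3. The block leaves 1 residual degree of freedom. The cause of the other shifts was not tested.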
